A study of Rattus norvegicus with 19 samples.

Results

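Avp and Oxt, the genes for the vasopressin and oxytocin precursors, were followed across 19 libraries of the paraventricular nucleus (PVN) of the rat hypothalamus. They were chosen by their Ensembl identifiers, ENSRNOG00000021229 for Avp and ENSRNOG00000021225 for Oxt, and are 2 of the 30560 genes in the deposited table of counts. Both were kept because they averaged over 50 CPM (counts of a gene per 1000000 counts of the library), with means of 1009 CPM for Avp and 1411 CPM for Oxt over the 19 libraries. The rats were 14 weeks old and came from 4 groups, with 4 males and 5 females of Wistar and 5 of each sex of SHR. Wistar is an outbred stock with normal blood pressure and SHR is an inbred strain that becomes hypertensive without treatment. The strains differ in genetic background as well as in blood pressure, so that these cannot be told apart in a comparison of strains. Rats of every group underwent the same implantation of a pressure transmitter, no group received a drug of its own, and females were recorded in dioestrus. Each library held polyadenylated RNA of PVN punches from both sides of the brain. Replicate numbers are those of the labels, and Wistar males had no replicate 1.

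Vasopressin and oxytocin are short peptides cut from larger precursors in the magnocellular neurons of the PVN and the supraoptic nucleus, whose axons release them into the blood from the posterior pituitary. Vasopressin retains water in the kidney and constricts vessels, and oxytocin is known for milk ejection, uterine contraction and, in rats, sodium excretion. Each precursor also contains a neurophysin, a carrier protein that accompanies the peptide in its granule. Parvocellular neurons of the PVN make vasopressin as well, where it acts with corticotropin-releasing hormone on the anterior pituitary, and others send vasopressin or oxytocin axons to the brainstem and spinal cord. Most magnocellular neurons make mainly vasopressin or mainly oxytocin.

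The genes are neighbours that are transcribed toward each other, with no other gene between them in RefSeq's order of genes. Mrps26 lies on the Oxt side and Ubox5 on the Avp side. The stretches of 250 bases before each annotated start, from RefSeq on GRCr8, are shown because these short promoters are where the transcription of the pair begins. That of Avp lies at chr3:138248523-138248772 on the minus strand and that of Oxt at chr3:138235504-138235753 on the plus strand. Capitals mark every match to the motifs named after the sequences.
Avp: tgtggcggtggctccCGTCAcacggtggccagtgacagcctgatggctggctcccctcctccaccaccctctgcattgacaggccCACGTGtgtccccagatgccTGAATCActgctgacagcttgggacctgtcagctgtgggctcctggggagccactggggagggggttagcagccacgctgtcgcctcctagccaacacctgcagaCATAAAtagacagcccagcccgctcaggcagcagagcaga
Oxt: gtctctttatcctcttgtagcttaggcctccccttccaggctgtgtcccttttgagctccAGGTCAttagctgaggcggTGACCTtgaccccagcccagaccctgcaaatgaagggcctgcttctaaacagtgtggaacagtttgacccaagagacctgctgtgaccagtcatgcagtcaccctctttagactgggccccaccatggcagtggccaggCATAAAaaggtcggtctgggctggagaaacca
The Avp stretch had 63.6% G and C and the Oxt stretch 55.2%, beside a median of 52.0% over 27457 rat promoters of the same length. Positions are counted back from the start, which follows base -1, and give the leftmost base of a match. The box CATAAA, searched on the gene's strand, lay at -40 in Avp and at -32 in Oxt, and 6.16% of all promoters hold it. The other motifs were searched on both strands. TGACG, the shorter core of the cyclic AMP response element, had a match at -235 in Avp and none in Oxt (19% of promoters), while the full element TGACGTCA, which contains it, had none in either (1.70% of promoters). The E-box CACGTG had a match at -165 in Avp (5.79% of promoters) and the AP-1 motif TGANTCA a match at -145 in Avp (6.36% of promoters), and neither was in the Oxt stretch. AGGTCA, a core recognized by many nuclear receptors, had matches at -190 and -171 in Oxt and none in Avp (13.7% of promoters). No match overlapped a match of another motif. A match is a run of letters and not a measured binding site.

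In 18 of the 19 libraries both precursors were among the most abundant transcripts. There Avp lay between 481 and 2012 CPM (median 997) and ranked between 22nd and 224th of the 30560 genes, and Oxt lay between 723 and 2175 CPM (median 1447) and ranked between 16th and 128th. Together they took between 0.153% and 0.385% of all counts (median 0.246%). Library totals were between 44943945 and 58793511 counts. At this depth the counting error was small, with 95% exact Poisson intervals of at most ± 1.26% of the value for Avp and ± 0.952% for Oxt in these 18 libraries, and such intervals cover counting error only. They treat counts as independent and would be wider if both reads of a fragment were counted, which is not stated.

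The library labelled Wistar female replicate 1 stood apart, with almost no precursor RNA. It had 736 counts of Avp, or 15.3 CPM (95% exact Poisson interval 14.2 to 16.4), and 540 counts of Oxt, or 11.2 CPM (10.3 to 12.2). The lowest of the other libraries had 31.5 times as much Avp and 64.4 times as much Oxt, and the median of the others was 65.2 and 129 times as high. Avp ranked 8775th and Oxt 9726th in this library, and both together were 0.00265% of its counts. Its total of 48111210 counts and its 18933 detected genes were within the range of the other libraries (18814 to 19534 detected genes). Of 2 genes picked because they separate the labelled sexes in these libraries, it had 0.0831 CPM of ENSRNOG00000057231 (males 113 to 121, other females at most 0.227) and 397 CPM of ENSRNOG00000037911 (males at most 0.827), the lowest level among the females. These values are a description and no independent check of its sex label.

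The rest of this library was compared with the others gene by gene. Genes counted here were at least 3-fold lower or higher in 1 library than in every other library and reached at least 1 CPM. Wistar female replicate 1 had 30 such low genes, which included both precursors, and 11 such high genes. The other 18 libraries had at most 2 low and 14 high genes each. By the fold below the lowest other library, Oxt came first and Avp after ENSRNOG00000032137, at 0.0416 CPM against at least 1.79 CPM elsewhere. ENSRNOG00000032137 had only 2 counts in this library, so its fold and its place above Avp are imprecise. After Avp came ENSRNOG00000005154, at 0.457 CPM against at least 7.16 CPM. The plot of genes that stand apart shows the number for each library. What the punch of this rat held was not tested, and in bulk tissue fewer cells of a type and less RNA per cell cannot be told apart. Results that include this library are therefore given with and without it.

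**Figure D1:**
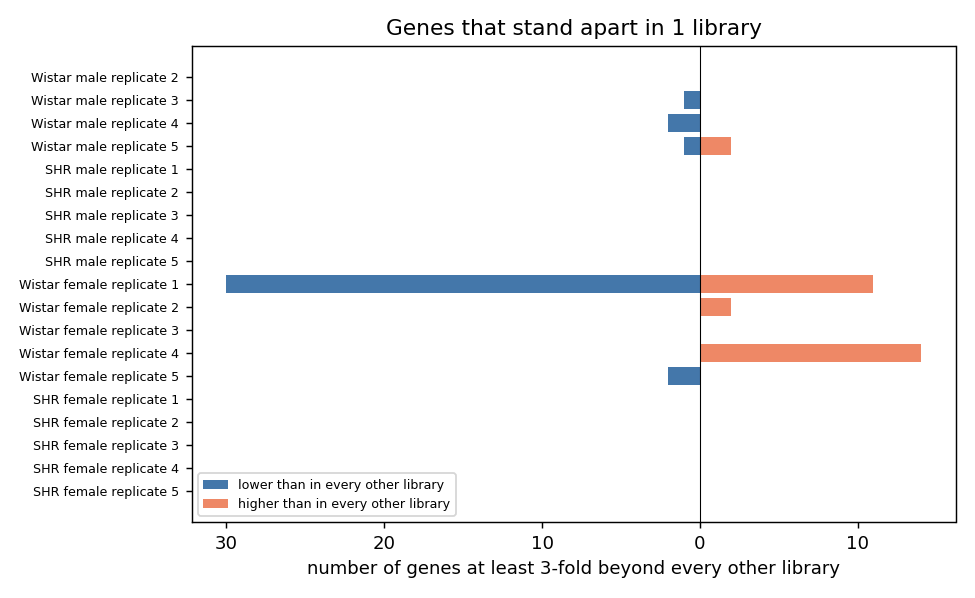
The number of genes (x axis) that lay at least 3-fold below (bars to the left) or above (bars to the right) every other library, for each of the 19 libraries (y axis). Wistar female replicate 1 had 30 low genes, where every other library had at most 2.

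Avp varied most among Wistar rats. Wistar males had 655 CPM in replicate 2, 2012 in replicate 3, 481 in replicate 4 and 879 in replicate 5, a mean of 1007 ± 689.6 (SD, n = 4). SHR males had 1339.9, 810.4, 1341, 1090.1 and 959 CPM in replicates 1 to 5, a mean of 1108 ± 234 (SD, n = 5). Wistar male replicate 3 was the highest of all libraries and replicate 4 the lowest but for Wistar female replicate 1, so the SHR males lay within the range of the Wistar males. Wistar females had 15.3, 1222, 1500.0, 608 and 978 CPM in replicates 1 to 5, a mean of 865 ± 577 (SD, n = 5), or 1077 ± 378 (SD, n = 4) without replicate 1. SHR females had 1430.2, 1018, 917, 1017 and 893 CPM, a mean of 1055 ± 217 (SD, n = 5), and 4 of these 5 libraries lay close together below replicate 1.

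Oxt was higher in CPM than Avp in 16 of the 19 libraries. Wistar males had 1084, 1842, 1304 and 2038 CPM in replicates 2 to 5, a mean of 1567 ± 447 (SD, n = 4). SHR males had 1549, 723, 1454, 1464 and 1394 CPM in replicates 1 to 5, a mean of 1317 ± 337 (SD, n = 5). Replicate 2 was far below the other SHR males, which lay close together. Wistar females had 11.2, 2058, 1911, 1440.3 and 2175 CPM, a mean of 1519 ± 888 (SD, n = 5), or 1896 ± 322 (SD, n = 4) without replicate 1. SHR females had 1516, 1341, 1017, 1231 and 1249.8 CPM, a mean of 1271 ± 181 (SD, n = 5). Without replicate 1, the Wistar females were the group with the highest mean of Oxt, and 3 of its 4 libraries were above every SHR library of either sex.

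Ordered by mean CPM, the groups ran from SHR males through SHR females and Wistar males to Wistar females for Avp, and from Wistar males through Wistar females and SHR males to SHR females for Oxt. Without Wistar female replicate 1, Wistar females came next after SHR males for Avp and had the highest mean for Oxt. In both orders, with and without it, neighbouring groups overlapped and their means differed by less than their pooled SD. The plot of levels by library shows this overlap.

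**Figure D2:**
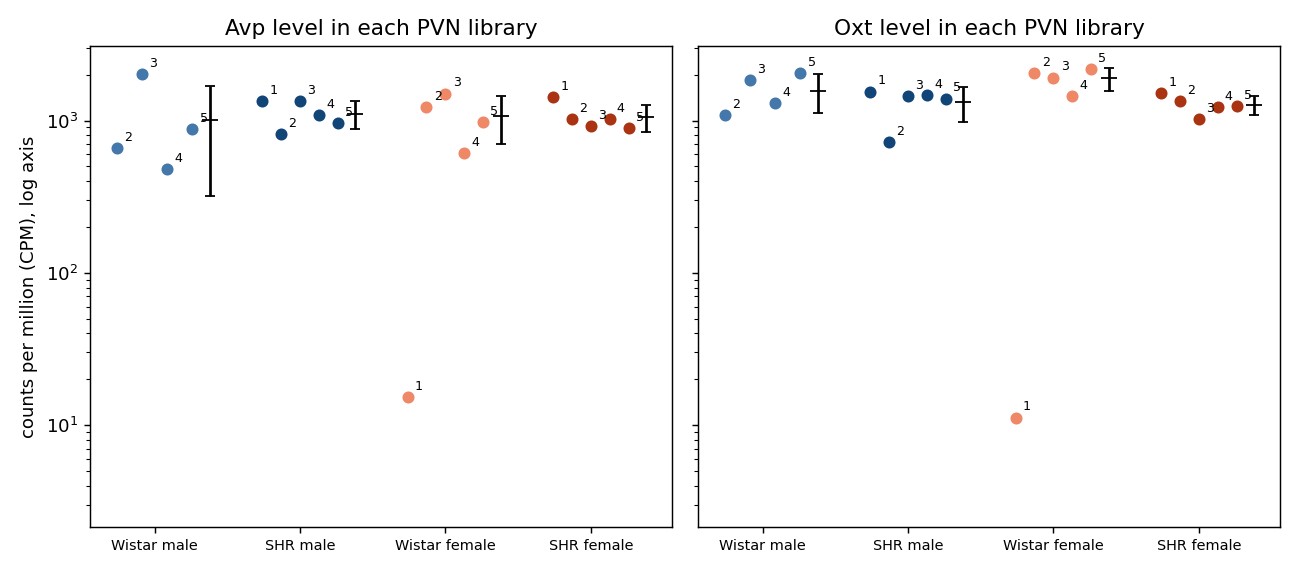
CPM of Avp (left) and Oxt (right) on a log axis in each library, by group on the x axis; points carry the replicate number, and black bars give the mean ± SD of a group, without replicate 1 for Wistar females. Wistar female replicate 1 lies at 15.3 and 11.2 CPM, and the other 18 libraries lie between 481 and 2175 CPM.

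The first question was whether the precursors differed between hypertensive and normotensive rats of the same sex. In males they did not pass the test. With edgeR's quasi-likelihood test and Benjamini-Hochberg adjustment over all genes tested, the log2 fold change of SHR against Wistar males was 0.20 for Avp (standard error 0.33, 95% confidence interval -0.52 to 0.91, adjusted p = 0.735). For Oxt it was -0.19 (standard error 0.20, interval -0.63 to 0.25, adjusted p = 0.573), and -0.035 without SHR male replicate 2. In the same comparison 12% of 17461 genes passed the adjusted threshold of 0.05. The Avp result changed with single libraries. Wistar male replicate 3 had the highest Avp of its group, so leaving it out raises the fold change. Of the 9 fits with 1 library left out, only the fit without Wistar male replicate 3 gave a call for Avp. In it the remaining Wistar males lay between 481 and 879 CPM. The log2 fold change of Avp was 0.79 with an edgeR adjusted p = 0.0257, which does not allow for that choice, and 8.01% of genes passed. In that fit 4 of 5 SHR males were above every Wistar male and the groups still overlapped. Without Wistar male replicate 4 the log2 fold change of Avp was -0.033 (edgeR adjusted p = 0.955).

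In females the result for Oxt depended on Wistar female replicate 1. With all 10 libraries, the log2 fold change of SHR against Wistar females was 0.27 for Avp (standard error 0.68, interval -1.22 to 1.77, edgeR adjusted p = 0.868) and -0.26 for Oxt (standard error 0.74, interval -1.87 to 1.36, edgeR adjusted p = 0.889), while 2.32% of 17404 genes passed. Without that library the standard errors were smaller. Oxt was then lower in SHR females by 0.58 on the log2 scale (log2 fold change -0.58, standard error 0.13, interval -0.87 to -0.29) with an edgeR adjusted p = 0.0480, just under the threshold, and 2.04% of genes passed. The groups still overlapped, since Wistar female replicate 4 at 1440.3 CPM was below SHR female replicate 1 at 1516 CPM. Avp was then at -0.04 (standard error 0.24, interval -0.56 to 0.48, edgeR adjusted p = 0.960). Also without this library, DESeq2's Wald test gave -0.58 for Oxt with an adjusted p = 0.00106 and 4.95% of genes called, and the edgeR fit of all 4 groups together gave -0.58 with an adjusted p = 0.0993 and 4.33% of genes called. The library was singled out by its low Avp and Oxt, and Oxt is the value tested here. The adjusted p-values without it do not allow for that choice.

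Whether females differed from males was asked within each strain. In Wistar rats the difference of females from males was -0.19 on the log2 scale for Avp (standard error 0.82, interval -2.0 to 1.62, edgeR adjusted p = 0.970) and -0.02 for Oxt (standard error 0.84, interval -1.87 to 1.83, edgeR adjusted p = 0.999). With replicate 1 of the females left out, these became 0.13 (interval -0.80 to 1.06) and 0.30 (interval -0.11 to 0.71), with an edgeR adjusted p = 0.9999 for each. With or without that library 0.0629% of genes passed. In SHR rats the intervals were narrower, and the log2 fold change was -0.10 for Avp (standard error 0.15, interval -0.43 to 0.22, edgeR adjusted p = 0.794) and -0.08 for Oxt (standard error 0.16, interval -0.43 to 0.27, edgeR adjusted p = 0.854), where 0.0694% of genes passed. The wide intervals in Wistar rats leave room for differences in either direction and do not show that the sexes were alike.

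The strain effect in females minus that in males, their interaction, was estimated from the 4 groups together. It was 0.09 on the log2 scale for Avp (standard error 0.86, interval -1.71 to 1.89, edgeR adjusted p = 0.971) and -0.06 for Oxt (standard error 0.88, interval -1.90 to 1.77, edgeR adjusted p = 0.980). Without Wistar female replicate 1 it was -0.25 for Avp (interval -1.20 to 0.71, edgeR adjusted p = 0.855) and -0.40 for Oxt (interval -0.96 to 0.17, edgeR adjusted p = 0.573). The lower Oxt of SHR females was thus not shown to differ from the strain effect in males. No gene passed with edgeR in either fit (0.00% of 17432, with 2332 genes at an unadjusted p under 0.05 with all libraries), and DESeq2 called 0.275% with all libraries. The plot of log2 fold changes sets these values side by side.

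**Figure D3:**
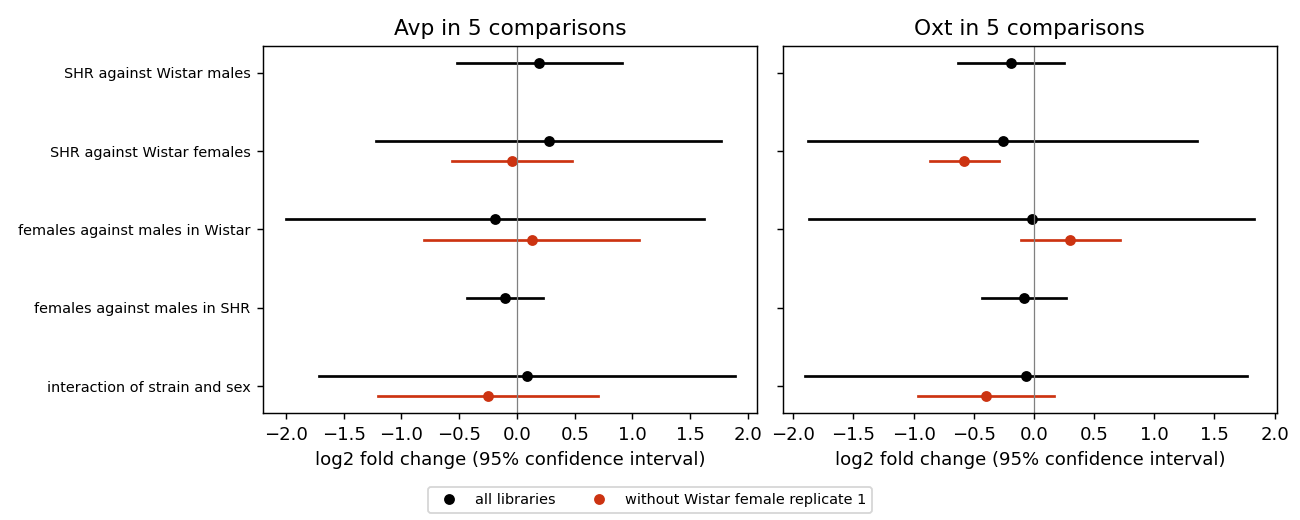
Log2 fold change of Avp (left) and Oxt (right) with its 95% confidence interval (x axis) in each of 5 comparisons (y axis), from edgeR with all libraries (black) and without Wistar female replicate 1 (red). The interval of Oxt between SHR and Wistar females without that library, from -0.87 to -0.29, does not reach 0. That library was singled out by its low Avp and Oxt.

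The ratio of Avp to Oxt counts compares the precursors within a library, where depth and scaling cancel. It is a ratio of counts and not of molecules, since the counts were not divided by transcript length and the genes share a nearly identical neurophysin exon whose reads could be split between them. Wistar males had ratios of 0.605, 1.09, 0.369 and 0.431 in replicates 2 to 5, and SHR males had 0.865, 1.12, 0.922, 0.744 and 0.688 in replicates 1 to 5. Among Wistar females the ratios were 1.36, 0.594, 0.785, 0.422 and 0.450, and among SHR females they were 0.943, 0.759, 0.902, 0.826 and 0.715. The highest ratio was thus that of Wistar female replicate 1, where both levels were low. All 10 SHR rats lay between 0.688 and 1.12 (median 0.845), and 6 of 9 Wistar rats were below the lowest SHR rat (median of Wistar rats 0.594, range 0.369 to 1.36). The Wistar median without Wistar female replicate 1 was 0.522 and the range 0.369 to 1.09, with 6 of 8 rats below the lowest SHR rat.

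No difference in this ratio passed the adjusted threshold over the 5 comparisons. SHR males exceeded Wistar males by 0.59 in mean log2 ratio (two-sided exact permutation test over 126 relabellings, p = 0.135, adjusted p = 0.675). This difference was 0.90 without Wistar male replicate 3 (exact permutation p = 0.0179, adjusted p = 0.0893) and 0.38 without Wistar male replicate 4 (exact permutation p = 0.286). These were the Wistar males with the highest and the lowest ratio. Without replicate 3, all SHR males (lowest ratio 0.688) were above the remaining Wistar males (highest 0.605). The p of 0.0179 was thus the smallest possible over the 56 relabellings. With the other p-values unchanged, the adjusted p could not have passed the threshold there. SHR females exceeded Wistar females by 0.33 (exact permutation p = 0.317, adjusted p = 0.738). Without Wistar female replicate 1, which had the highest ratio of its group, this difference was 0.60 (exact permutation p = 0.0238, adjusted p = 0.119 over the 5 comparisons). It was 0.17 without Wistar female replicate 4 and 0.20 without replicate 5, which had the lowest ratios (exact permutation p = 0.587 and 0.571). Females differed from males by 0.20 in Wistar rats (exact permutation p = 0.675) and by -0.05 in SHR rats (exact permutation p = 0.738), and the first of these was -0.06 without that library (exact permutation p = 0.886). The interaction was -0.26 (exact permutation p = 0.594), or 0.01 without that library (exact permutation p = 0.983).

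Since the ratio was higher in SHR rats in both sexes, the strains were also compared with the sexes combined, a comparison added after these values were seen. With strain labels permuted within each sex, the mean log2 ratio was 0.46 higher in SHR rats (exact permutation test over 31752 relabellings, p = 0.0610). Without Wistar female replicate 1 it was 0.59 higher (exact permutation p = 0.00762 over 15876 relabellings), and without Wistar male replicate 3 it was 0.62 higher (exact permutation p = 0.0111 over 14112 relabellings). These were the Wistar rats with the highest ratios (1.36 and 1.09), so leaving out either one widens the difference. Those p-values do not allow for that choice. In addition, this test treats same-numbered rats of both sexes as unrelated, and what the replicate numbers stand for is not given. With any other single library left out, the difference lay between 0.36 and 0.50 and missed the threshold (exact permutation p up to 0.130, without Wistar male replicate 4). With all libraries, the difference of mean ratios on the linear scale was 0.17 (exact permutation p = 0.163). As a difference of medians of the log2 ratio it was 0.62 (exact permutation p = 0.00548), so whether it passed depended on the measure. The plot of the ratio shows the narrow SHR groups beside the wide Wistar groups.

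**Figure D4:**
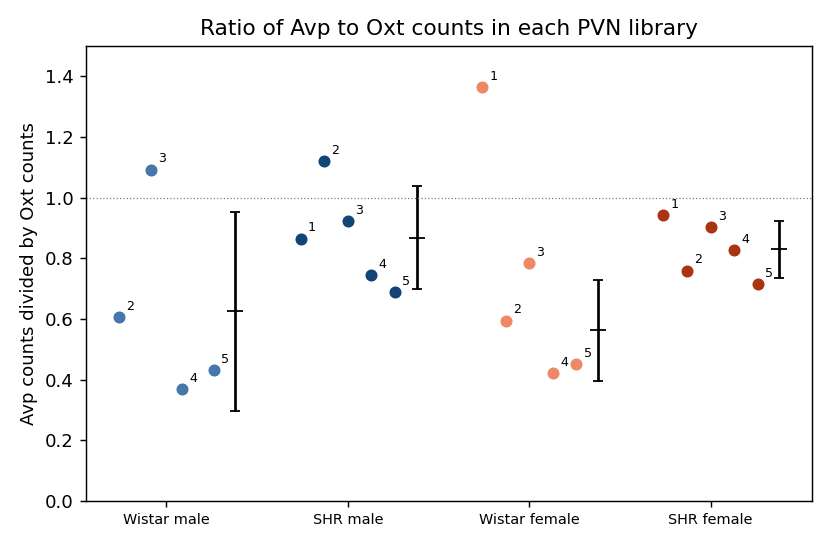
Avp counts divided by Oxt counts (y axis, linear) in each library by group (x axis); points carry the replicate number, black bars give the mean ± SD of a group, without replicate 1 for Wistar females, and the dotted line marks a ratio of 1. Of the 9 Wistar rats, 6 lie below the lowest SHR rat at 0.688.

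Rats of the same group that had more Avp tended to have more Oxt. How reads of the nearly identical neurophysin exon were counted is not given, and their part in this relation was not tested. With group means subtracted from log2 CPM, Pearson's r was 0.639 (permutation p = 0.00875, adjusted p = 0.0437 over 5 relations) and Spearman's rho 0.744 (permutation p = 0.00364, adjusted p = 0.0182) over the 18 libraries without Wistar female replicate 1. Leaving out the 2 libraries farthest from the median of Avp as well gave r = 0.691. With all 19 libraries r was 0.964 (permutation p = 0.00095, adjusted p = 0.00475) and rho 0.911 (permutation p = 0.00048, adjusted p = 0.0024), a value that rests on the library that stands apart, since r fell to 0.680 without it and Wistar male replicate 3. By strain, r was 0.772 in the 10 SHR rats (permutation p = 0.00296, rho 0.806, permutation p = 0.0068). In the 8 remaining Wistar rats it was 0.667 and missed the threshold (permutation p = 0.130, rho 0.619, permutation p = 0.192). Neither precursor showed a relation past the adjusted threshold with the replicate number or with the library total, which made up the other 4 relations. Without Wistar female replicate 1, Avp fell with the library total (r = -0.31, permutation p = 0.0443, adjusted p = 0.0836; rho = -0.45, permutation p = 0.0409, adjusted p = 0.102), and so did Oxt (r = -0.53, permutation p = 0.0501, adjusted p = 0.0836; rho = -0.43, permutation p = 0.0648, adjusted p = 0.108), the latter with r = -0.14 without SHR male replicate 2 and SHR female replicate 2. The plot of Avp against Oxt shows the strains side by side in this relation.

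**Figure D5:**
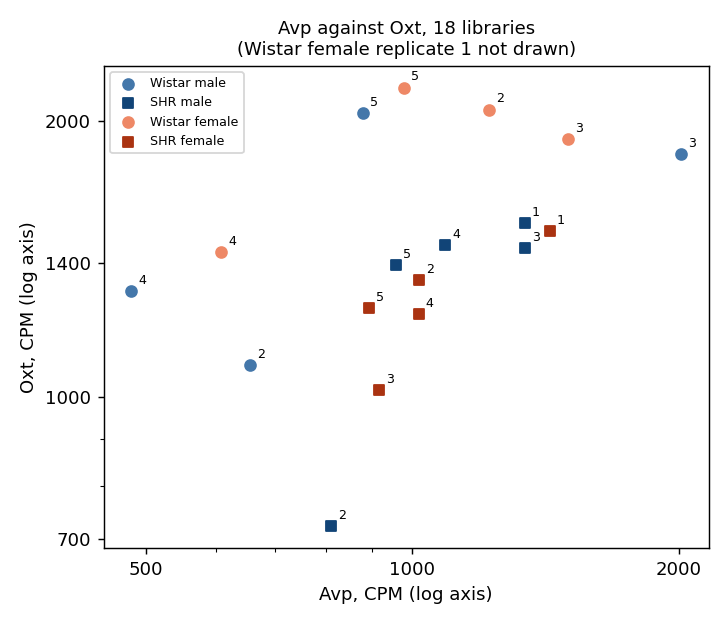
Oxt (y axis) against Avp (x axis) in CPM on log axes for 18 libraries, coloured by group (circles Wistar, squares SHR) and labelled with the replicate number; Wistar female replicate 1 is not drawn. Libraries with more Avp tend to have more Oxt, and 6 of the 8 Wistar rats drawn have less Avp for their Oxt than any SHR rat.

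Both precursors varied more between rats than most other abundant genes. Among the 214 genes with a mean of at least 500 CPM in Wistar males, none had a larger SD of log2 CPM (with 1 added) than Avp, at 0.89, and 5 had a larger one than Oxt, at 0.43, beside a median SD of 0.069. In SHR males Oxt had the largest SD of 216 such genes, at 0.46, and Avp at 0.31 was exceeded by 1 gene (median 0.071). In Wistar females without replicate 1, the SD of Avp was 0.56, exceeded by 2 of 215 genes, and that of Oxt was 0.26, exceeded by 14 (median 0.090). With replicate 1 these were 2.71, exceeded by 1 of 212 genes, and 3.26, exceeded by none (median 0.114). In SHR females 7 of 214 genes exceeded the SD of Avp, 0.27, and 16 that of Oxt, 0.21 (median 0.084). As a description, the spread of Avp was thus wider in the Wistar groups than in the SHR groups of the same sex.

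The likeness of other genes was measured by Pearson's r of log2 CPM (with 1 added) over the libraries and is given as a description, since libraries of a group and the library that stands apart are shared by all genes. Over 19 libraries Oxt was the most like Avp of 17431 genes (r = 0.951), Avp was the 5th most like Oxt, and 13 and 17 genes had r over 0.9 with Avp and with Oxt. Without Wistar female replicate 1 the r between the precursors was 0.447, Oxt ranked 254th for Avp and Avp 2686th for Oxt, and no gene had r over 0.9 with either. The likeness over 19 libraries was thus set mostly by 1 library.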

How the data were processed

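PVN RNA of 19 rats was sequenced by the authors from both ends of stranded, polyadenylated fragments. The authors used Trimmomatic (Phred threshold 30), STAR with the Rn7 genome and featureCounts, and the values they deposited are raw counts per gene. Tool versions, the annotation and the strand, pair and multiple-mapping settings are not given in the sources used here. The neurophysin exons of Avp and Oxt are nearly identical, so reads could be split between them or dropped, and their levels, ratio and correlation are uncertain to that extent. Of values from 1 to 100, 73.9% were even. The limit that a count of 0 allows is 3 counts, or 6 if mates were counted apart.

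Samples were grouped by the labels' strain and sex, and replicates were separate rats. No 2 libraries of a group were identical or agreed within sampling noise (36 pairs, chi-square per gene at least 5.91). Genes with a mean above 5 normalized counts (median-of-ratios) over the libraries of a fit were tested with edgeR 4.0.16 (quasi-likelihood, TMM, Benjamini-Hochberg, threshold 0.05) in R 4.3.3, with the groups compared alone in the fit, or all 4 for the interaction. DESeq2 1.42.0 (Wald test) was an alternative, and the authors used DESeq2. CPM, exact Poisson intervals, permutation tests (exact, or 100000 resamples for correlations) and motif matches were computed in Python 3.11.15 (scipy 1.17.1, numpy 2.4.6, pandas 2.3.3, matplotlib 3.10.9 for plots). The edgeR and DESeq2 steps were tested on simulated data with the same dispersion for every gene. How they behave for genes that vary as much as Avp and Oxt, or with 1 extreme library, was not tested.

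The 2 genes and all lists were chosen with earlier results of these data known. Genes to be named were the 2 precursors, their neighbours, the genes most like them and members of lists of receptors, processing enzymes, other PVN peptides, regulators and cell type markers. Those lists, the genes most like them by symbol and 4 planned relations with PVN neuron markers were left out, because neither the files nor the reference tables used here pair identifiers with these symbols. For the same reason the tissue label was checked by Avp and Oxt alone, which are themselves its best known transcripts. The 4 other identifiers named were chosen after their values were seen. RefSeq promoters are on GRCr8 and the counts on Rn7, so no other coordinates are given. Alternatives covered scaling, filters, adjustment, tool, libraries in the fit, the replicate number and leaving out each library.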

Additional observations from a re-analysis of the deposited data

Results flagged for a closer look

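In each group of 4 or 5 libraries, the gap between the most extreme library and its nearest neighbour was set against the group's whole range on the log2 scale, for Avp, Oxt and their ratio. Of 12 groups tested in this way, 4 held a library beyond Dixon's limit at the 95% level, where chance gives about 1 in 20 groups for independent tests. Avp, Oxt and their ratio come from the same libraries, so these tests are not independent and 4 of 12 cannot be set against that rate. Wistar female replicate 1 was beyond the limit for Avp, with a gap of 0.803 of the range (15.3 CPM against 608 CPM in the next library), and for Oxt, with a gap of 0.922 (11.2 against 1440.3 CPM). SHR male replicate 2 was low in Oxt, with a gap of 0.861 of the range (723 against 1394 CPM), while its Avp of 810.4 CPM was not beyond the limit. SHR female replicate 1 was high in Avp, with a gap of 0.721 of the range (1430.2 against 1018 CPM). Wistar male replicate 3 was not beyond the limit for Avp, with a gap of 0.579 of the range against a limit of 0.829. In the ratio of Avp to Oxt, no library of any of the 4 groups was beyond the limit.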

How the results depend on the processing

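With Wistar female replicate 1 left out, the log2 fold changes of Avp in females were -0.10 with the replicate block, -0.038 with DESeq2 and -0.042 with all 4 groups in 1 fit, and those of Oxt in females were -0.64 with the replicate block (adjusted p = 0.0431, edgeR, with 1.21% of genes called) and -0.58 with DESeq2. In the Wistar sex comparison without it, Avp and Oxt were at 0.26 and 0.32 with the block, 0.13 and 0.30 with DESeq2 and 0.13 and 0.31 with all 4 groups in 1 fit, and the interaction of Avp was -0.32 with the block and -0.23 with DESeq2.

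The replicate number was entered as a block although the samples share only a number. Deviations of same-numbered libraries correlated above 0.1 in 3 of 4 pairs for SHR against Wistar males, in 3 of 5 for females, in 2 of 4 for the sexes in Wistar and in 3 of 5 in SHR, and 6 of 18 libraries correlated best with their own number. With all libraries and the block, Oxt in females was at 0.085, and females against males in Wistar were at 0.26 for Avp and 0.32 for Oxt. In that last comparison Wistar female replicate 1 has no partner among the males. The ratio of Avp to Oxt in it was -0.062 over same-numbered pairs. With the number as a linear covariate, Oxt in that comparison was at 0.064. The block with all libraries changed no call.

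With each library left out in turn, the log2 fold change ranged from -0.033 to 0.79 for Avp and from -0.32 to -0.035 for Oxt in males, from -0.042 to 0.60 for Avp and from -0.58 to -0.11 for Oxt in females, from -0.51 to 0.41 for Avp and from -0.16 to 0.30 for Oxt between Wistar sexes, from -0.24 to -0.031 for Avp and from -0.24 to -0.015 for Oxt between SHR sexes, and from -0.51 to 0.40 for Avp and from -0.40 to 0.081 for Oxt in the interaction. Of these, Avp in males without Wistar male replicate 3 and Oxt in females without Wistar female replicate 1 passed the threshold. The ratio difference ranged from 0.38 to 0.90 between strains in males and from 0.17 to 0.60 in females, from -0.062 to 0.52 between Wistar sexes, from -0.13 to 0.044 between SHR sexes, from -0.57 to 0.0091 in the interaction and from 0.36 to 0.62 for the strains with the sexes combined, where it passed without Wistar male replicate 3 or Wistar female replicate 1. Values that passed no threshold changed sign without Wistar male replicate 4 for Avp in males, without Wistar female replicate 1 for Avp in females, without Wistar male replicate 3 or 5 or Wistar female replicate 1 or 4 between Wistar sexes, without Wistar male replicate 4, Wistar female replicate 1 or SHR male replicate 2 for ratios, and without 1 of 12 libraries for the interaction of Avp or Oxt. The strain difference in ratio with the sexes combined, a comparison added after the values were seen, was 0.62 as a difference of medians with all libraries (exact permutation p = 0.00548). The correlation of Avp with Oxt was 0.968 within Wistar alone (permutation p = 0.0119, adjusted p = 0.0596) and 0.667 there without Wistar female replicate 1, neither of which passed the adjusted threshold.

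Under the remaining alternatives, which covered scaling, the linear ratio, size factors, filters, counts divided by 2, Bonferroni adjustment and totals without the precursors, results kept their direction and their side of the threshold. Relations with markers were not run. With 4 or 5 rats a group and a wide spread between rats, small differences were not detectable, whereas counting error was not the limit at this depth. The causes of these changes were not tested.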

Other observations

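Among the Wistar rats of both sexes, the libraries with the same replicate number came in the same order of the ratio of Avp to Oxt counts. The order was replicate 3 (1.09 in males and 0.785 in females), replicate 2 (0.605 and 0.594), replicate 5 (0.431 and 0.450) and replicate 4 (0.369 and 0.422). In SHR rats the order differed between the sexes, with replicate 2 highest in males (1.12) and replicate 1 highest in females (0.943), although replicate 5 was lowest in both (0.688 and 0.715). This order was noticed after the values were seen and was not tested, and what the numbers stand for is not given in the sources used here.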
